A study of Homo sapiens with 4 samples.

Results

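The regions described are the ATAC-seq peaks of the long arm of chromosome 17 in Kasumi-1 cells, taken as all peaks whose middle lay between positions 26882157 and 83120775 of chromosome 17 in hg38. These limits had been selected on the log2 fold changes of the same tables, where the values shift. This rule gave 827 of the 20556 peaks of a first deposited table and 664 of the 13577 peaks of a second one, or 1491 of 34133 table entries in all. They were set against the other peaks of chromosome 17, which numbered 224 in the first and 152 in the second table and lay almost all on the short arm. The lower fold changes within it are therefore given as a description, with no test.

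Kasumi-1 is an acute myeloid leukaemia line with the t(8;21) translocation, which fuses RUNX1 to RUNX1T1. The SETD8 knockout, made with CRISPR/Cas9, has 2 libraries, and the control, labelled sgNT with the genotype WT, has 2 libraries. The time after editing, and whether the knockout cells were a pool or 1 clone, are not given in the sources used here. None of the libraries of the first table is named, whereas the second table compares the knockout library and the sgNT library numbered 2, so each group has 1 library there and the differences have no replicate check.

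SETD8, now named KMT5A, is the enzyme that places a single methyl group on lysine 20 of histone H4, a mark tied to chromosome compaction and to the control of DNA replication. In ATAC-seq a transposase inserts sequencing adapters into accessible DNA, and a peak is a place where such insertions pile up, mostly at active promoters and enhancers. The long arm of chromosome 17 is a gene-dense arm that carries, among others, STAT3, STAT5A and STAT5B (transcription factors downstream of cytokine receptors), RARA (the retinoic acid receptor), the HOXB cluster, many CC chemokine genes and the host gene of miR-21. Reads in a peak scale both with how accessible the DNA is and with how many copies of it the cells hold, and these cannot be told apart in the tables analysed here.

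The second table held 2091322 reads in peaks for the knockout library and 5348110 for the sgNT library. Levels were lower in the knockout at nearly all peaks of the genome. The median log2 fold change over all peaks was -0.87 in the first and -1.23 in the second table, and each value for the long arm is therefore read against that median. The promoter of KMT5A, on chromosome 12 at positions 123383687 to 123384415, held 251 knockout and 685 normalised sgNT reads in the second table (log2 difference -1.45), while the authors' first deposited table gives it -0.82. A coding edit need not change the accessibility of the promoter, so these peaks check the labels only in part. Promoter peaks were present at 6 of 9 genes typical of this line in both tables, namely CD34, KIT, SPI1, CEBPA, RUNX1 and PTPRC. Of 11 markers of other cell types, 4 had a promoter peak in the first table (CD3D, EPCAM, COL1A1 and PECAM1) and 0 in the second.

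The promoters of 6 genes are shown as examples and do not stand for the promoters of the arm. They were chosen after their values had been seen, and each line gives the 250 bases before the start site in RefSeq (GRCh38.p14), 5′ to 3′ on the strand of the gene. Capitals mark matches on either strand to CCAAT (the letters bound by NF-Y), GGGCGG (SP and KLF factors), TGACGTCA (the cyclic AMP response element, CRE), CCGGAAG (ETS factors) and TGTGGT (RUNX factors). GRN, at chr17:44345052-44345301 on the plus strand, encodes the lysosomal growth factor precursor progranulin and had one of the lowest promoter values of the second table. ATP5MC1, at chr17:48892537-48892786 on the plus strand, encodes a ring subunit of ATP synthase. SKA2, at chr17:59155187-59155436 on the minus strand, encodes a kinetochore protein and had one of the strongest promoter peaks of the arm. CDK5R1 (chr17:32486743-32486992 on the plus strand), which encodes an activator of the kinase CDK5, and VEZF1 (chr17:57988255-57988504 on the minus strand), a zinc finger transcription factor, were at the upper end. MAP2K4, at chr17:12020627-12020876 on the plus strand, encodes a kinase of the JNK pathway on the short arm and is shown for comparison. Its value was the highest of 10 short arm comparison promoters of the second table, whose median was -1.32, so it does not stand for that arm.
GRN: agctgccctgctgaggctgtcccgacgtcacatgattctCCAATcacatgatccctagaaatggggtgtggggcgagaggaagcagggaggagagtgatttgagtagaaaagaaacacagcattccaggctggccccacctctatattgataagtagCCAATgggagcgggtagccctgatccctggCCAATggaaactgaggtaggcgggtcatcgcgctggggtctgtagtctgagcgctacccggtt
ATP5MC1: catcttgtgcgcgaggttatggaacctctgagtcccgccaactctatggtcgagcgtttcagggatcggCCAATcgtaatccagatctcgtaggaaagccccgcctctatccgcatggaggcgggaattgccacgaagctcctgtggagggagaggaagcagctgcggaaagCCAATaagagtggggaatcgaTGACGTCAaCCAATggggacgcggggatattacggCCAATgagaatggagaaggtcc
SKA2: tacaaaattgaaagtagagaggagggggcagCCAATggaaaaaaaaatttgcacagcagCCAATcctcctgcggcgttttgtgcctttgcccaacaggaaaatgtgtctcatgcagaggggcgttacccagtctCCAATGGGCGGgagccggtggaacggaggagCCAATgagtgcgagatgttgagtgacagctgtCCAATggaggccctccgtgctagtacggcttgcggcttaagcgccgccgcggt
CDK5R1: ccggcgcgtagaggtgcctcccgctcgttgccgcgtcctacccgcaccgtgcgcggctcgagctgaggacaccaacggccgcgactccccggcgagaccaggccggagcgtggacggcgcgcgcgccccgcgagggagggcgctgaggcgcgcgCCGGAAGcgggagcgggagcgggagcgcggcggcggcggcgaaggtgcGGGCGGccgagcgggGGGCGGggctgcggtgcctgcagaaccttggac
VEZF1: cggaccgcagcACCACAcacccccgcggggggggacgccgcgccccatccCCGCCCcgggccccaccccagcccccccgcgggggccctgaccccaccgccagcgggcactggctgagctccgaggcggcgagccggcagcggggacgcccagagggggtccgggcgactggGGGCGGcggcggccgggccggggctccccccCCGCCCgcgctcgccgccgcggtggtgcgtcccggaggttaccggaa
MAP2K4: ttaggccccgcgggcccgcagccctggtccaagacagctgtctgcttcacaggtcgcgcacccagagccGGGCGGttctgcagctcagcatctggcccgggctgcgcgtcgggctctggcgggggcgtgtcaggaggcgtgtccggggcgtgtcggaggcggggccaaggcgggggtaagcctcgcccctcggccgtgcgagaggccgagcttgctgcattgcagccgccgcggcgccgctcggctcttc

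The windows of GRN, ATP5MC1 and SKA2 were 55.6%, 56.0% and 55.6% G and C and held 3, 4 and 5 CCAAT matches. CDK5R1 and VEZF1 were 79.6% and 84.0% G and C, held 0 CCAAT matches, and had 2 and 3 GGGCGG matches. The MAP2K4 window was 74.0% G and C with 1 GGGCGG match. The GRN peak of the second table, at positions 44344917 to 44346043, held 137 knockout and 626 normalised sgNT reads. The ATP5MC1 promoter held 357 knockout and 1305 normalised sgNT reads, and the SKA2 promoter 498 knockout and 1820 normalised sgNT reads. At the other end, CDK5R1 held 236 knockout and 362 normalised sgNT reads, and VEZF1 209 knockout and 396 normalised sgNT reads. The MAP2K4 promoter held 105 knockout and 167 normalised sgNT reads. On the log2 scale the differences were -2.19 for GRN, -1.87 for both ATP5MC1 and SKA2, -0.62 for CDK5R1, -0.92 for VEZF1 and -0.67 for MAP2K4. These windows lie far apart in base content and are not typical of the arm. Over all long arm promoter windows at a peak the median content of G and C was 67.3%, and 39.5% held CCAAT. Second-table medians there were -1.67 with CCAAT and -1.56 without it.

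Peaks of the long arm had lower fold changes than the rest of chromosome 17 in both tables. In the first table the median log2 fold change was -1.09 on the long arm, -0.705 at the other chromosome 17 peaks and -0.86 on the other chromosomes. In the second table these medians were -1.59 on the long arm, -1.255 at the other chromosome 17 peaks and -1.21 on the other chromosomes. The long arm differed from the rest of its chromosome by -0.385 in the first table, a ratio of 0.766 on the linear scale, and by -0.335 in the second, a ratio of 0.793. Fold changes also vary with the level of a peak, and with that trend removed the difference was -0.31 in both tables.

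The whole distribution was displaced rather than one tail of it. In the second table the quartiles of the long arm peaks were -1.76 and -1.38, against -1.42 and -1.01 at the other chromosome 17 peaks. The corresponding quartiles of the first table were -1.36 and -0.78 on the long arm, against -1.01 and -0.41 at the other chromosome 17 peaks. The spread within the groups was alike, with an SD over peaks of 0.359 on the long arm and 0.368 at the other chromosome 17 peaks in the second table, and of 0.505 on the long arm and 0.543 at the other chromosome 17 peaks in the first.

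**Figure D1:**
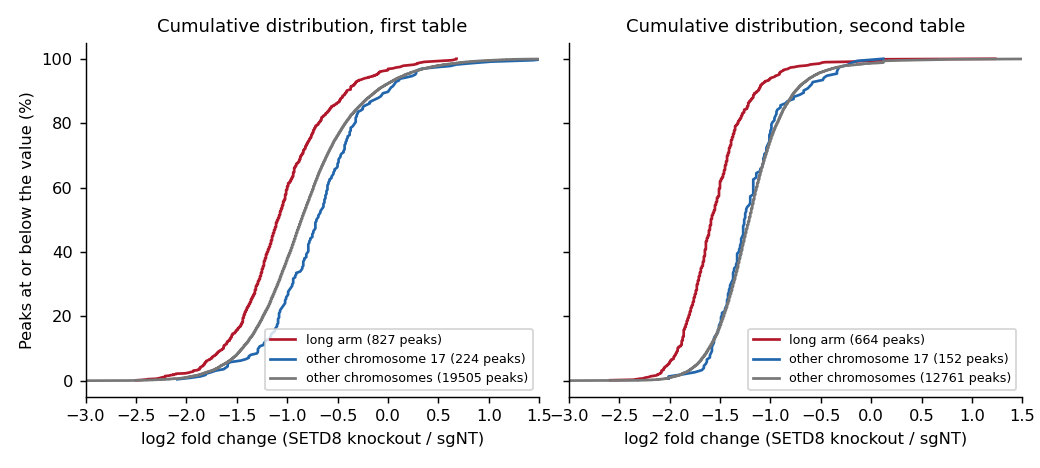
Cumulative percentage of peaks at or below each log2 fold change (SETD8 knockout over sgNT) for the long arm, the other chromosome 17 peaks and the other chromosomes, first table on the left and second table on the right. The long arm curve lies to the left of both others in each table, with medians of -1.09 and -1.59.

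Below the median of its table lay 568 of 827 long arm peaks (68.7%) in the first, where 49.3% of all peaks did, and 561 of 664 (84.5%) in the second, where 49.1% of all peaks did. Of the other chromosome 17 peaks 75 of 224 (33.5%) and 81 of 152 (53.3%) lay there. A peak lower by at least 1 on the log2 scale was found 499 times (60.3%) on the long arm in the first table, against 38.9% of all peaks, and 624 times (94.0%) in the second, against 76.1%. Lower by at least 1.5 were 130 long arm peaks in the first table, with a background of 8.51%, and 411 (61.9%) in the second, with a background of 19.5%. A value above 0 was found at 26 long arm peaks in the first table, against 7.45% of all peaks, and at 4 in the second, against 1.34%. A rise of at least 1 was seen at 0 long arm peaks in the first table (background 0.511%) and at 1 in the second (background 0.133%). These shares use the fold changes from which the limits of the segment were drawn, and nothing is read from their size.

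No peak of the arm passed the authors' test on its own. Of the long arm peaks, 0 had an adjusted p under 0.05 in the authors' first deposited table, where the background was 0.0%, and 17 had an unadjusted p under 0.05, where the background was 1.6%. The smallest adjusted p on the arm was 0.731 there. For the authors' second deposited table, long arm peaks passed 0 times at an adjusted p under 0.05 (background 0.0%) and 0 times at an unadjusted p under 0.05 (background 0.14%), and the smallest adjusted p was 0.578. That second test had 1 library per group and so no replicates from which to estimate a spread.

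Counting error can be given for the second table, because its levels are those of whole reads. Long arm peaks had a median of 127 knockout reads and of 388 normalised sgNT reads. The median peak of the other chromosomes held 125 knockout and 294 normalised sgNT reads. Relative to the other chromosomes, long arm peaks were thus 1.02 times as strong in the knockout library and 1.32 times as strong in the sgNT library. The other chromosome 17 peaks were weaker in both libraries, with medians of 99.5 knockout and 248 normalised sgNT reads. Of all reads in peaks, the long arm took 5.04% in the knockout library (95% Wilson interval 5.01% to 5.07%) and 6.48% in the sgNT library (6.46% to 6.50%), a ratio of 0.778. For the other chromosome 17 peaks the shares were 0.826% (0.813% to 0.838%) in the knockout library and 0.835% (0.828% to 0.843%) in the sgNT library. These intervals cover counting error only, and with 1 library per group they do not give the spread between libraries.

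**Figure D2:**
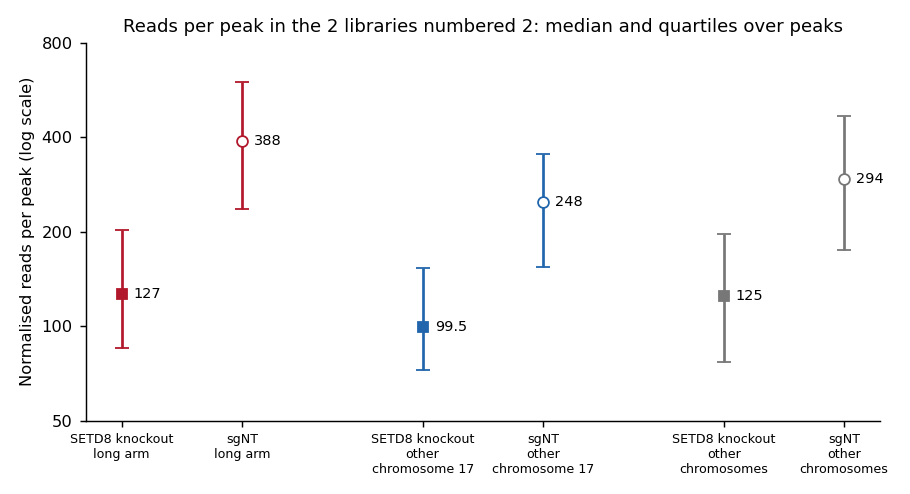
Normalised reads per peak on a log scale in the knockout library (squares) and the sgNT library (circles) numbered 2, for the long arm, the other chromosome 17 peaks and the other chromosomes. Symbols are medians over peaks and bars run between the quartiles. The long arm and the other chromosomes have nearly the same median in the knockout library (127 reads on the long arm, 125 on the other chromosomes), while the long arm median is higher in the sgNT library (388 on the long arm, 294 on the other chromosomes).

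For 382 of 664 long arm peaks (57.5%) the 95% counting interval of the log2 difference lay wholly below the median of the second table, as it did for 17% of all its peaks and for 19 of 152 other chromosome 17 peaks (12.5%). It lay wholly above that median for 23 long arm peaks, against 17.8% of all peaks and 19 other chromosome 17 peaks. The segment was chosen by these differences, so nothing is read from these counts. Among long arm peaks at or above the median level the counting error of one peak had a median of 0.124, whereas the SD between those 412 peaks was 0.269. On the other chromosomes the same values were 0.122 and 0.271. The peaks of the arm therefore differ among themselves by more than counting error, about as much as peaks elsewhere do.

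The lower limit of the segment was placed by the same values, so the peaks on its 2 sides are a description only. The 25 second-table peaks nearest to it inside had a median of -1.65, with 22 below the table median, against -1.28 for the 25 nearest outside, with 17 below. For the first table the medians were -1.02 inside and -0.81 outside, with 19 peaks inside and 10 outside below the table median.

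Medians of 2 Mb bins with at least 5 peaks stayed low from one end of the arm to the other. All 27 such bins of the long arm lay below the table median in the second table, between -1.76 at 58 to 60 Mb and -1.35 at 36 to 38 Mb. Of the 27 in the first table, 24 did, with the lowest at 42 to 44 Mb (-1.24) and the highest at 26 to 28 Mb (-0.80), a bin that also holds 2 peaks outside the limits. The other 2 bins not below the median, at 54 to 56 Mb (-0.85) and 56 to 58 Mb (-0.86), missed it by 0.02 and 0.01. Bins on the rest of the chromosome ran between -1.36 and -1.135 in the second table, with 4 of 8 below the table median, and between -0.895 and -0.475 in the first, with 2 of 10 below. When the 2 Mb bins of the whole genome were ordered, the long arm supplied 23 of the lowest 85 for the second table and 6 of the lowest 110 for the first, while it held 3.18% and 2.46% of all bins. The segment was selected on these fold changes, so nothing is read from these counts of bins.

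**Figure D3:**
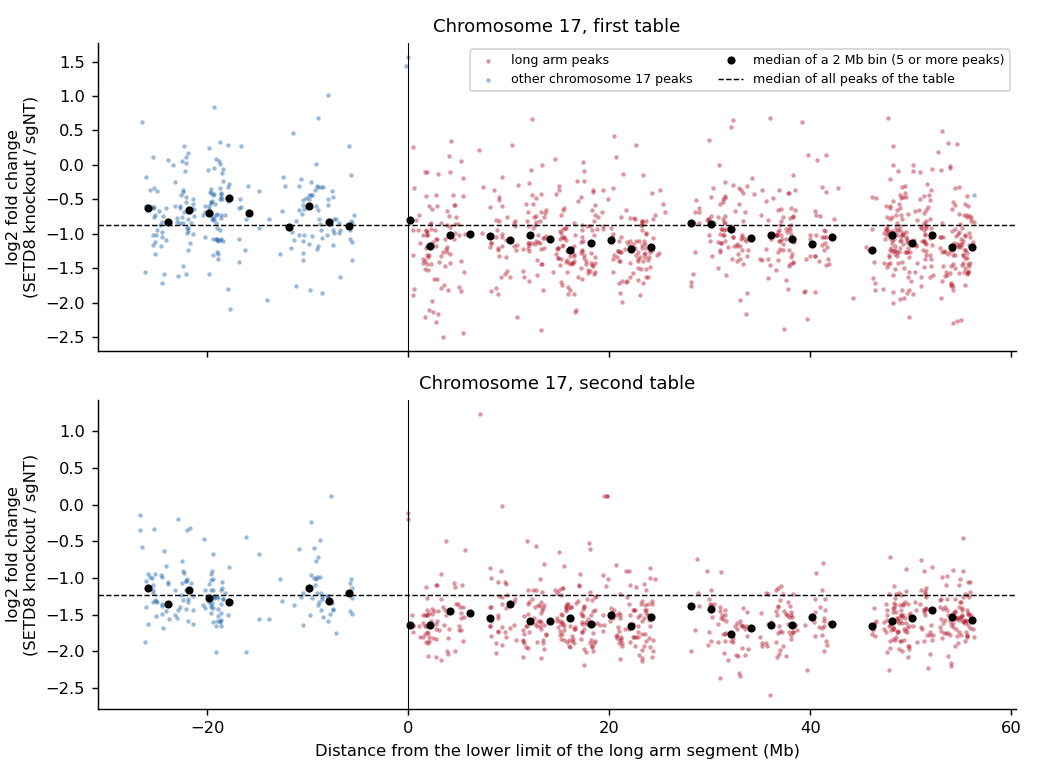
Log2 fold change (SETD8 knockout over sgNT) of every chromosome 17 peak against its distance in Mb from the lower limit of the segment, first table above and second table below. Points are peaks, black dots are medians of 2 Mb bins with at least 5 peaks and the dashed line is the median of the whole table. The bin medians of the long arm run between -1.24 and -0.80 in the first table and between -1.76 and -1.35 in the second, mostly under the dashed line.

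The outermost peaks did not all follow the arm. The first 2 peaks inside the lower limit in the second table, in the pericentromeric region at positions 26882157 to 26882737 and 26883889 to 26884409, held 114 knockout against 123 normalised sgNT reads (log2 difference -0.11) and 88 knockout against 101 normalised sgNT reads (-0.20). The third, at 27244554 to 27245657, held 88 knockout and 251 normalised sgNT reads (-1.51). Just outside on the short arm, 3 peaks of MAP2K3, a kinase of the p38 pathway, had differences of -1.27, -1.14 and -1.49. The nearest peaks outside in the authors' first deposited table, at 26603755 to 26604020 and 26881254 to 26881532, had fold changes of 1.44 and 1.57, and the first inside, at the MIR4522 and WSB1 genes, had -1.31, -1.89 and -0.94. At the upper limit the last peak inside, downstream of METRNL, held 75 knockout and 261 normalised sgNT reads in the second table (-1.80). That peak had -0.83 in the authors' first deposited table, and the single peak beyond it, at positions 83199317 to 83200823, had -0.43. The position of the limits was set on these values, so the edge peaks show only how sharp the rule is.

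Ranked by median among the other chromosomes, with chromosome 17 split into the long arm and the rest, the long arm had the lowest median of 24 in the second table. Next were chromosome 9 (-1.46), chromosome 2 (-1.36) and chromosome X (-1.30). Chromosome 9 was lowest in the first table at -1.16, the long arm was next at -1.09 and chromosome 2 followed at -1.07. With the level trend removed, the medians of the first table were -0.17 for the long arm, -0.21 for chromosome 2 and -0.285 for chromosome 9, so both chromosomes lay below the arm. The rest of chromosome 17 had rank 6 in the second table and rank 22 in the first. The limits of the arm were drawn on these fold changes, so nothing is read from its ranks.

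The displacement was present at promoters and away from them. Promoter peaks, within 3 kb of a start site, made up 531 of the 827 long arm peaks and had a first-table median of -1.14, against -0.72 at the 171 other chromosome 17 promoters. The 412 promoter peaks of the arm in the second table had a median of -1.61, against -1.29 at the 115 on the rest of the chromosome. Promoter peaks held a median of 170 knockout and 505 normalised sgNT reads on the long arm, and of 116 knockout and 286 normalised sgNT reads on the rest of the chromosome. Intron peaks had medians of -0.93 on the long arm (134 peaks) and -0.68 on the rest of the chromosome (26 peaks) in the first table, and distal intergenic peaks of -1.0 (99 peaks) and -0.53 (22 peaks). With the level trend removed, the intron medians lay closer together, at -0.1325 on the long arm and -0.0175 on the rest of the chromosome. Those of distal intergenic peaks were -0.13 on the long arm and 0.1775 on the rest of the chromosome. Among second-table peaks the 38 intron peaks and the 45 distal intergenic peaks of the arm had medians of -1.64 and -1.66, but the rest of the chromosome held only 4 and 6 of these. The 139 long arm peaks of the second table that overlapped no annotated peak had a median of -1.40, against -0.94 for the 27 on the rest of the chromosome.

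Long arm peaks were also stronger, which matters because the weakest peaks had higher fold changes on the long arm, on the rest of the chromosome and on the other chromosomes alike. Their mean level had a median of 263 normalised reads in the second table, against 174 at the other chromosome 17 peaks, and of 186 on the long arm against 110 at the other chromosome 17 peaks in the first. Within 4 classes of equal size by level, the long arm was lower in all 4 classes of both tables. Its difference from the other chromosome 17 peaks ran between -0.35 and -0.18 over the classes of the second table and between -0.405 and -0.155 over those of the first, where the 2 weaker classes had the smaller differences, -0.155 and -0.21. Against the other chromosomes these 2 classes of the first table differed by only -0.105 and -0.09. Since the arm was selected on these fold changes, nothing is read from its being lower in each class.

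Whether the tables share libraries is not stated, so their values are set side by side and not counted as replicates. Of the long arm peaks 521 joined in pairs by overlap, which was 63.0% of those in the first table and 78.5% of those in the second. Both values lay below the medians of their tables for 379 pairs (72.7%), against 34 of 125 pairs (27.2%) on the rest of chromosome 17 and 33.5% of all pairs. At or above both medians were 23 long arm pairs. The segment was selected on the fold changes of these tables, so nothing is read from these counts of pairs. Which peak of the arm was lowest, however, was little shared, with Pearson's r of 0.19 and Spearman's rho of 0.16 across the 521 pairs, given as a description since peaks of one library are not independent. The SD of the long arm values within a table, at 0.505 in the first and 0.359 in the second, was larger than the difference between the arm and the rest of the chromosome.

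**Figure D4:**
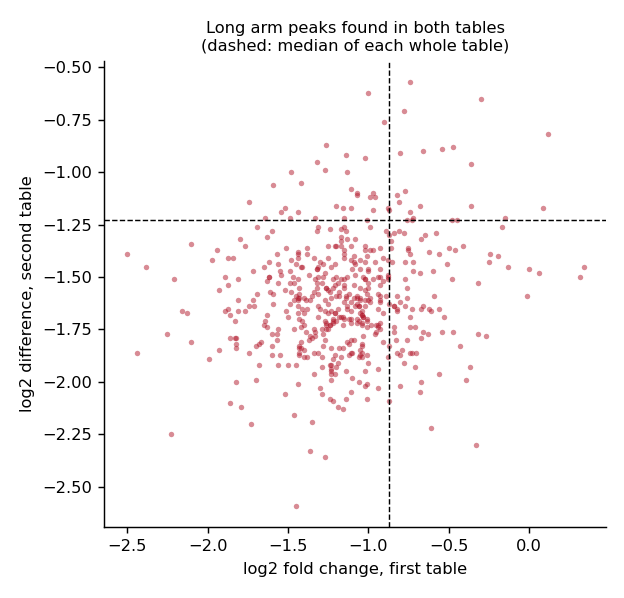
Log2 difference (SETD8 knockout over sgNT) in the second table against the log2 fold change in the first for the 521 long arm peaks found in both. Dashed lines are the medians of all peaks of each table, and 379 points lie to the lower left of both, while the cloud itself has little slope. The limits of the arm were drawn on these values, so nothing is read from that count.

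Only 2 peaks were among the lowest 5% of the long arm in both tables. One was the promoter of SP2-AS1, an antisense transcript beside the transcription factor gene SP2, at positions 47941234 to 47941913, which held 155 knockout and 666 normalised sgNT reads (log2 difference -2.10, counting error 0.128) and had -1.86 in the authors' first deposited table. The other was an intron peak assigned to PRKCA-AS1, antisense to the protein kinase C alpha gene, at 66493810 to 66494484, with 51 knockout and 242 normalised sgNT reads (-2.25, counting error 0.221) and -2.23 in the authors' first deposited table. Without strand information a gene and its antisense partner cannot be told apart. At the upper end, 1 peak was among the highest 5% in both, the promoter of the pseudogene MRPL45P2, at 47492022 to 47492852, with 46 knockout and 81.0 normalised sgNT reads (-0.82) and 0.12 in the authors' first deposited table. Reads of a pseudogene can be shared with its parent gene, so its value is uncertain. Whether unrelated values would give as many shared peaks at either end was not tested.

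Beyond GRN, the lowest strong promoters of the second table belonged to genes of unlike function. CUEDC1, which encodes a protein with a ubiquitin-binding CUE domain, was lowest at positions 57867912 to 57868573, with 90 knockout and 461 normalised sgNT reads (-2.36, counting error 0.165). The peak annotated to MIR21 followed with 101 knockout and 508 normalised sgNT reads (-2.33, counting error 0.156). SGCA, a sarcoglycan of the muscle membrane complex, held 86 knockout and 377 normalised sgNT reads (-2.13). NR1D1, the circadian repressor REV-ERB alpha, held 129 knockout and 549 normalised sgNT reads (-2.09). Their values in the authors' first deposited table were nearer to its median of -0.87, at -1.27 for CUEDC1, -1.36 for MIR21, -1.35 for GRN, -1.16 for SGCA and -1.22 for NR1D1.

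The highest strong promoters of the second table, apart from CDK5R1 and VEZF1, were those of NOG, TBCD, PIGW and XYLT2. NOG, the BMP antagonist noggin, held 184 knockout and 345 normalised sgNT reads (-0.91). TBCD, a tubulin folding cofactor, held 202 knockout and 419 normalised sgNT reads (-1.05), and XYLT2, a xylosyltransferase of proteoglycan synthesis, 274 knockout and 580 normalised sgNT reads (-1.08). PIGW, an enzyme of GPI anchor synthesis, held 215 knockout and 449 normalised sgNT reads (-1.06). NOG was also above the median in the authors' first deposited table at -0.80, while CDK5R1 (-1.0), VEZF1 (-1.14), TBCD (-1.42), PIGW (-1.59) and XYLT2 (-1.11) were below it.

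By the first table, the lowest strong promoters were others. In the authors' first deposited table BLMH, the bleomycin hydrolase gene at positions 30291342 to 30292428, had -2.50 (p = 0.0266, adjusted p = 0.731), TEX2 -2.38, the mRNA export factor ALYREF -2.25, UNC119 -2.21, CHCT1 -2.16 and DHRS13 -2.10. The same promoters had second-table differences of -1.39 (BLMH), -1.45 (TEX2), -1.77 (ALYREF), -1.51 (UNC119), -1.66 (CHCT1) and -1.81 (DHRS13), all below the median of -1.23 there. The highest in the authors' first deposited table were SLC25A39, a mitochondrial glutathione carrier, at -0.24, TSPOAP1-AS1 at -0.25, KLHL11 at -0.36, the formin FMNL1 at -0.37, the nucleoside diphosphate kinase NME1 at -0.41 and a peak annotated to SUPT4H1 at -0.45. Of these, SLC25A39 (-1.39), TSPOAP1-AS1 (-1.43) and NME1 (-1.35) lay below the median of the second table and KLHL11 (-1.16) just above it, and the peaks of FMNL1 and SUPT4H1 had no partner.

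Outside promoters the extremes were again mostly particular to one table. In the authors' first deposited table the lowest strong peaks were in or near BAIAP2 (-2.30), BAHCC1 (-2.26), PRKCA-AS1 (-2.23) and MXRA7 (-2.21), and the highest were at TBC1D16 (0.49), ETV4 (-0.23), RNF157 (-0.31) and KPNA2 (-0.32). BAIAP2, which encodes an actin regulator, had 5 peaks in the authors' first deposited table, between -2.30 and -1.23. The lowest of the second table were an intron peak of VMP1 (-2.30), and peaks by DNAH17 (-2.22), LOC101928855 (-2.20) and RPTOR (-2.16, 186 knockout against 832 normalised sgNT reads). The highest were near MIR193A (-1.12), NPTX1 (-1.28), GRB7 (-1.37) and CDC27 (-1.46), so that only the first of these 4 lay above the table median. RPTOR, the mTOR complex subunit raptor, had 6 peaks in the second table, all below its median, between -2.16 and -1.5. It also had 6 in the authors' first deposited table, where 4 were below the median. Its promoter peak there was at 0.32, with a mean level of 96.3 normalised reads against a table median of 142. The nearest gene of a peak outside a promoter need not be its target.

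Peaks of the arm that were not lower in the knockout were few in the second table. Of the 4 above 0, 3 had 1 read in each library and the other, at positions 34039854 to 34040483, had 30 knockout and 12.8 normalised sgNT reads (log2 difference 1.23, counting error 0.467). A strong peak at 36181867 to 36184269 held 488 knockout and 495 normalised sgNT reads (-0.02, counting error 0.0901), and none of these 5 joined with a peak of the first table.

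The strongest promoters of the arm lay between -1.87 and -1.53 in the second table. MAP3K3, a kinase that signals to NF-kappaB and MAP kinases, held 541 knockout and 1820 normalised sgNT reads at its promoter (-1.75) and had -1.26 in the authors' first deposited table. P4HB, protein disulfide isomerase, had the highest mean level of the second table's long arm peaks, with 714 knockout and 2062 normalised sgNT reads (-1.53). The strongest of the authors' first deposited table also included TOB1 (-1.34), a peak by MIR21 (-1.96) and SKA2 (-1.05).

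Peaks by MIR21 were low in both tables. miR-21 is an abundant microRNA with raised levels in many cancers, and its hairpin, at positions 59841266 to 59841337, follows the last exons of VMP1, a gene of autophagosome formation. Mature sequences of 3 long arm microRNAs known from blood cells or leukaemia, as RefSeq (GRCh38.p14) gives them, are shown with the seed, bases 2 to 8, in capitals, and no seed is shared among them.
hsa-miR-21-5p: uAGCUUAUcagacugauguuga
hsa-miR-142-3p: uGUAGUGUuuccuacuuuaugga
hsa-miR-193a-3p: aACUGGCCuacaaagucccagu

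Of the peaks of the first table, 2 were annotated to MIR21. The upstream one had -1.36 in the authors' first deposited table, and one 1032 bp past the hairpin, at 59842369 to 59844621, had -1.96 at a mean level of 1675 normalised reads. The upstream peak in the second table, at 59837385 to 59838054, had -2.33. The intron peak of VMP1 at 59786322 to 59786987 held 73 knockout and 360 normalised sgNT reads (-2.30, counting error 0.184), whereas its partner in the authors' first deposited table had -0.33. Of the neighbouring promoters in the second table, those of CLTC and TUBD1 were nearer to the arm's median of -1.59. That of PTRH2 was not, and lay below the arm's 5% quantile of -2.01. PTRH2, a mitochondrial peptidyl-tRNA hydrolase, held 202 knockout and 843 normalised sgNT reads (-2.06), CLTC, the clathrin heavy chain, 315 knockout and 1024 normalised sgNT reads (-1.70), and TUBD1, delta tubulin, 256 knockout and 771 normalised sgNT reads (-1.59). In the authors' first deposited table these 3 had -1.29 (PTRH2), -1.15 (CLTC) and -1.18 (TUBD1).

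Of 72 microRNA hairpins of the arm, 17 had a peak within 3 kb in the first and 16 in the second table, 13 of them in both. The strongest such peak stood for a hairpin, and the peak shared by MIR423 and MIR3184 was counted for each. The median was -0.86 in the first table, with 8 of 17 below the table median, where 49.3% of all peaks and 68.7% of long arm peaks lay. It was -1.44 in the second, with 13 of 16 below, where 49.1% of all peaks and 84.5% of long arm peaks lay. Several of these peaks are promoters of protein-coding genes. MIR142, a microRNA gene of blood cells, had its nearest peak in the second table at the TSPOAP1-AS1 promoter 1177 bp away, with 155 knockout and 419 normalised sgNT reads (-1.43). The MIR423 peak had 86 knockout and 211 normalised sgNT reads (-1.29). MIR193A had a promoter peak in the first table only, and the authors' first deposited table gives it -0.86.

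Genes of the arm were also grouped into 12 lists of 194 genes by function, with the strongest promoter peak standing for a gene. A promoter peak was found in the first table for 122 of these, and 100 (82.0%) lay below the table median, as did 78.2% of all long arm genes with a promoter peak and 55.8% of all genes. The second table had one for 104, and 100 (96.2%) lay below, as did 92.1% of all long arm genes and 52.8% of all genes. The median of the 11 short arm comparison genes with a promoter peak was -0.78 in the first table, with 4 below its median. Of these, 10 had a peak in the second table, with a median of -1.32 and 8 below. No list was tested against the others. Counts of the single lists below are to be set beside these shares of all long arm genes. Because the arm was selected on these fold changes, nothing is read from the counts.

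**Figure D5:**
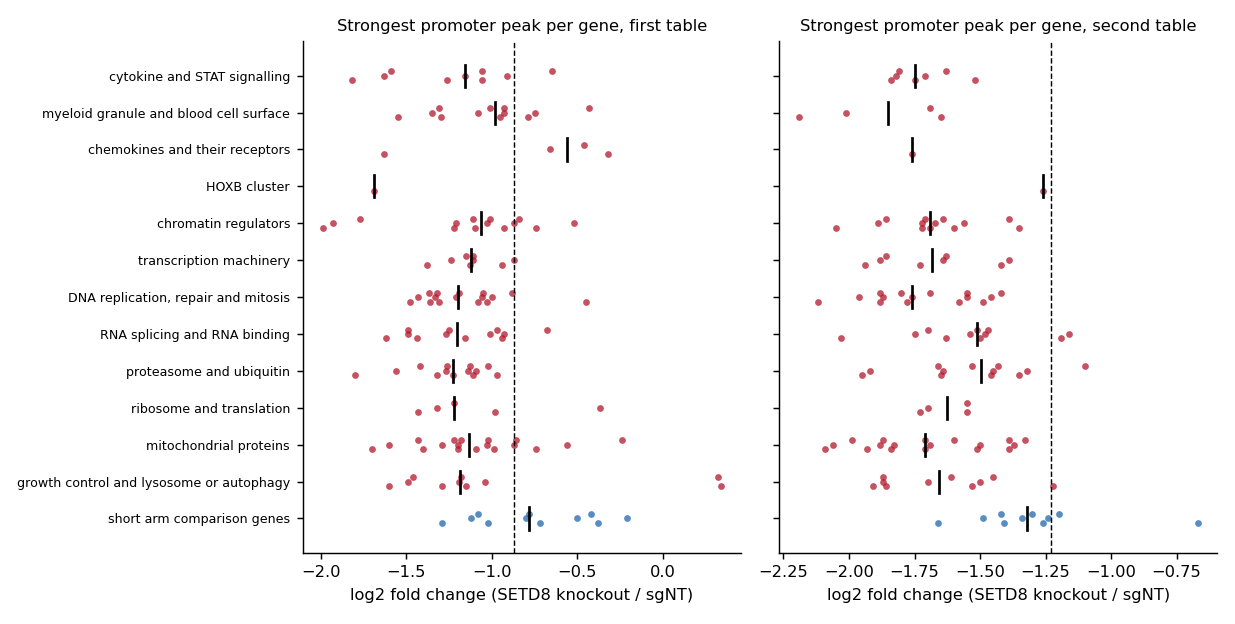
Log2 fold change (SETD8 knockout over sgNT) at the strongest promoter peak of each gene, by list, first table on the left and second table on the right. Each point is a gene, short vertical bars are list medians and the dashed line is the median of all peaks. List medians with at least 3 genes lie between -1.23 and -0.56 in the first table and between -1.85 and -1.495 in the second for the long arm lists (red), and at -0.78 and -1.32 for the short arm comparison genes (blue).

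The cytokine and STAT list holds genes that carry signals from receptors of blood cells. Of its members with a promoter peak, 8 of 9 genes lay below the median in the first table (list median -1.16) and 7 of 7 in the second (-1.75). RARA held 115 knockout and 413 normalised sgNT reads (-1.84), CRLF3, a cytokine receptor-like protein, 162 knockout and 572 normalised sgNT reads (-1.82), and GRB2, the adaptor that links receptors to RAS, 247 knockout and 867 normalised sgNT reads (-1.81). The MAP3K14 promoter, of the NF-kappaB-inducing kinase, had 375 knockout and 1160 normalised sgNT reads (-1.63), and SOCS7, a suppressor of cytokine signalling, 118 knockout and 338 normalised sgNT reads (-1.52). STAT3 held 296 knockout and 969 normalised sgNT reads (-1.71) and had -1.06 in the authors' first deposited table. STAT5A and STAT5B had a promoter peak in the first table only, and the authors' first deposited table gives them -0.65 and -1.16.

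Among genes of myeloid granules and of the blood cell surface, 9 of 12 lay below the median in the first table (-0.98) and 4 of 4 in the second (-1.85). Besides GRN these were CD300LB, an activating receptor of myeloid cells (117 knockout and 471 normalised sgNT reads, -2.01), CD300LF, its inhibitory relative (105 knockout and 329 normalised sgNT reads, -1.65), and the platelet integrin ITGA2B (115 knockout and 372 normalised sgNT reads, -1.69). The MPO gene had no promoter peak among those analysed here. Chemokine and HOXB genes were mostly without peaks. Of the 4 chemokine list genes with a peak in the authors' first deposited table, CCL2 (-0.32), CCL5 (-0.46) and CCR7 (-0.66) lay above the median and CCL3 (-1.63) below it. CCR7, a lymph node homing receptor, held 102 knockout and 345 normalised sgNT reads in the second table (-1.76). HOXB3 alone of its cluster had a promoter peak, with 101 knockout and 242 normalised sgNT reads (-1.26), and the authors' first deposited table gives it -1.69.

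Of the chromatin regulators, 10 of 14 lay below the median in the first table (-1.065) and 13 of 13 in the second (-1.69). KAT7, the histone acetyltransferase HBO1, held 260 knockout and 1075 normalised sgNT reads (-2.05). EZH1, a histone H3 lysine 27 methyltransferase, was the highest with 195 knockout and 498 normalised sgNT reads (-1.35), but had -1.77 in the authors' first deposited table. The strongest promoters were those of H3-3B, which encodes histone H3.3, with 388 knockout and 1409 normalised sgNT reads (-1.86), and SMARCD2, a SWI/SNF subunit of granulocyte development, with 372 knockout and 1226 normalised sgNT reads (-1.72). In the transcription machinery list 7 of 8 were below in the first table (-1.12) and 8 of 8 in the second (-1.685). HEXIM1, an inhibitor of the elongation kinase P-TEFb, held 407 knockout and 1563 normalised sgNT reads (-1.94), and CDK12, which phosphorylates RNA polymerase II, 151 knockout and 396 normalised sgNT reads (-1.39). UBTF, an activator of RNA polymerase I, held 237 knockout and 635 normalised sgNT reads (-1.42).

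Replication, repair and mitosis genes were below the median at 15 of 16 promoters in the first table (-1.20) and 15 of 15 in the second (-1.76). RAD51C, of homologous recombination, was lowest with 66 knockout and 286 normalised sgNT reads (-2.12). BIRC5, which encodes survivin, was highest with 187 knockout and 501 normalised sgNT reads (-1.42). CENPX, a kinetochore and Fanconi pathway protein, held 461 knockout and 1380 normalised sgNT reads (-1.58). For TOP2A, the topoisomerase of proliferating cells, there were 151 knockout and 588 normalised sgNT reads (-1.96).

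Splicing and RNA-binding genes were 11 of 12 below in the first table (-1.205) and 9 of 11 in the second (-1.51). DDX42, a helicase of the spliceosome, had 357 knockout and 1458 normalised sgNT reads (-2.03). SRSF2, a splicing factor mutated in myeloid disease, had 588 knockout and 1641 normalised sgNT reads (-1.48), and the helicase DDX5 523 knockout and 1489 normalised sgNT reads (-1.51). Above the median were CWC25, a spliceosome factor (130 knockout and 290 normalised sgNT reads, -1.16), and CASC3, of the exon junction complex (267 knockout and 609 normalised sgNT reads, -1.19). Proteasome and ubiquitin genes were below at 13 of 13 promoters in the first table (-1.23) and 11 of 12 in the second (-1.495). The proteasome subunit PSMB3 had 180 knockout and 695 normalised sgNT reads (-1.95), and NPLOC4, a p97 cofactor, 115 knockout and 247 normalised sgNT reads (-1.10). The strongest of the list were USP36, a nucleolar deubiquitinase (419 knockout and 1305 normalised sgNT reads, -1.64), and SPOP, a ubiquitin ligase adaptor (307 knockout and 969 normalised sgNT reads, -1.66).

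Ribosome and translation genes lay below at 4 of 5 promoters in the first table (-1.22) and 4 of 4 in the second (-1.625). RPL23A, a large subunit protein, held 153 knockout and 508 normalised sgNT reads (-1.73), RPL27, of the same subunit, 237 knockout and 695 normalised sgNT reads (-1.55), and the initiation factor EIF1 393 knockout and 1152 normalised sgNT reads (-1.55). Genes for mitochondrial proteins, which the title of the series brings into view, lay below at 13 of 18 promoters (72.2%) in the first table (-1.135). Of all long arm genes with a promoter peak 78.2% did. In the second table they lay below at 18 of 18 (-1.71), where 92.1% of all long arm genes did. PDK2, which inhibits pyruvate dehydrogenase, was lowest with 176 knockout and 750 normalised sgNT reads (-2.09) but had -0.87 in the authors' first deposited table. COX11, a copper chaperone of cytochrome oxidase, had 137 knockout and 545 normalised sgNT reads (-1.99) and -1.70 in the authors' first deposited table. SLC25A10, the dicarboxylate carrier, was highest with 231 knockout and 580 normalised sgNT reads (-1.33). FDXR, ferredoxin reductase, held 410 knockout and 1342 normalised sgNT reads (-1.71).

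In the list of growth control, lysosome and autophagy genes, 8 of 10 were below in the first table (-1.185) and 9 of 10 in the second (-1.655). PRKAR1A, the regulatory subunit of protein kinase A, held 180 knockout and 676 normalised sgNT reads (-1.91), and CSNK1D, casein kinase 1 delta, 236 knockout and 549 normalised sgNT reads (-1.22). The RAS inhibitor NF1 had 0.34 in the authors' first deposited table at its strongest promoter peak and held 129 knockout and 352 normalised sgNT reads in the second (-1.45). That NF1 peak of the first table was weak, with a mean level of 45.6 normalised reads against a table median of 142. WIPI1, an autophagy protein, held 294 knockout and 1067 normalised sgNT reads (-1.86).

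On the short arm, the comparison promoters of POLR2A, the largest subunit of RNA polymerase II, and of NCOR1, a corepressor, held 247 knockout and 657 normalised sgNT reads (-1.41) and 108 knockout and 258 normalised sgNT reads (-1.26). EIF5A, a translation factor, held 228 knockout and 576 normalised sgNT reads (-1.34). The lowest of them, AURKB, the mitotic kinase Aurora B, held 67 knockout and 212 normalised sgNT reads (-1.66). Their values in the authors' first deposited table were -0.80 (POLR2A), -0.21 (NCOR1) and -0.42 (AURKB).

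Promoter sequences of the arm resembled those of other chromosomes in base content. RefSeq lists 534 promoter windows (250 bases before to 50 after a start site) that overlap a peak on the long arm, 192 on the rest of chromosome 17 and 12959 in the genome. Their median content of G and C was 67.3% on the long arm, 67.0% on the rest of the chromosome and 66.0% over all windows at a peak. Short motifs were searched on both strands. GGGCGG was found in 75.5% of long arm windows, 80.7% on the rest of the chromosome and 73.3% of all, and CCAAT in 39.5% of long arm windows, 38.5% on the rest of the chromosome and 35.9% of all. CCGGAAG, for ETS factors, was found in 19.3% on the long arm, 23.4% on the rest of the chromosome and 20.9% of all. TGTGGT, for RUNX factors, was found in 11.8% on the long arm, 10.4% on the rest of the chromosome and 9.18% of all. The E-box CACGTG was at 11.6% on the long arm, 10.4% on the rest of the chromosome and 10.3% of all, and the NRF1 letters CGCATGCG were at 4.31% on the long arm, 4.17% on the rest of the chromosome and 4.49% of all. Some rarer letters differed more between the arm and the rest of its chromosome, where few windows held them. The YY1 letters AAGATGGCG were in 24 long arm windows (4.49%) and 22 on the rest of the chromosome (11.5%), against 4.13% of all. TGACGTCA was in 14 long arm windows (2.62%) and 11 on the rest of the chromosome (5.73%), against 3.56% of all. TATAAA was in 24 long arm windows (4.49%) and 2 on the rest of the chromosome (1.04%), against 4.40% of all, and the GATA letters AGATAA in 18 (3.37%) on the long arm and 4 (2.08%) on the rest of the chromosome, against 4.07% of all. A match is a description and not a bound site.

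Base content went with the values of the second table on the arm as it did elsewhere. The long arm windows were divided into 4 equal classes by their G and C content, with limits of 60.7%, 67.3% and 73.7%. From the lowest to the highest class the median differences were -1.69, -1.65, -1.58 and -1.47 on the long arm, and -1.32, -1.29, -1.21 and -1.09 on the other chromosomes. Windows with CCAAT had a median of -1.67 on the long arm and those without it -1.56, while on the other chromosomes windows with CCAAT had -1.30 and those without it -1.20. The long arm was lower in all 4 classes, but it was selected on these fold changes, so nothing is read from that. For the first table the classes of the arm had medians of -1.175, -1.21, -1.25 and -1.19, and those of the other chromosomes -0.93, -0.94, -0.94 and -0.97.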

How the data were processed

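ATAC-seq libraries of Kasumi-1 cells, 2 of SETD8 knockout and 2 of sgNT, were made from a one-step kit per the labels' protocols, and groups were taken from the titles. Build hg38 and the tools ChIPseeker, MACS2 2.1.2, Bowtie2, cutadapt, SAMtools and deepTools come from the submitters' processing notes. Scaling, duplicate removal and the shift for the transposase cut are not given in the sources used here. Deposited by the authors were 2 tables of log2 levels, log2 fold changes, p-values and adjusted p-values. Columns of the first were identified by order and range and its direction by the table's name. Its 2 columns of library values were not used, since their libraries are not named.

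For the second table the difference of the 2 deposited log2 levels was taken. For the knockout library the levels matched whole reads (100.0% of 2294 weak values within 0.005 on the log2 scale) and reads times 0.918 in the sgNT library (100.0% of 375). The counting error of a peak is the SE of its log2 ratio from the reads alone. Peaks of the second table took class and gene from the first-table peak they overlapped most, by at least 1 bp. Medians over peaks are those of these libraries. The level trend was removed with 20 bins of equal size.

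The members of the segment, the gene lists, the motifs and the tests were chosen with earlier results of these data known. Named genes were, per table, the 6 promoter and 4 other peaks with the lowest and highest values at or above the median level, the ends and the 2 strongest of each list, and the peaks at the limits, and others named were chosen after their values were seen. A gene that the rule named is not reported here. RefSeq (GRCh38.p14) symbols matched 827 of 827 first-table members, and 28 had changed. Alternatives were a level filter, the level trend, joined peaks, promoter and other peaks, and narrower limits. The script that takes the medians was checked on simulated data with a known shift. Python 3.11.15, numpy 2.4.6, pandas 2.3.3, scipy 1.17.1 and matplotlib 3.10.9 were used.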

Additional observations from a re-analysis of the deposited data

How the results depend on the processing

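The difference between the long arm and the other chromosome 17 peaks kept its sign under all alternatives run. Every alternative reused the fold changes on which the segment was selected, so nothing is read from the kept sign. In the first table the difference was -0.31 with the level trend removed, against -0.385. In the second it was -0.38 outside promoters, where 113 long arm peaks stood against 10, compared with -0.335. Shares of long arm peaks below the median were taken against the median of the peaks kept in each setting, so their references differ. In the first table the share was 76.9% at or above the median level, 73.1% among joined peaks, 73.4% at promoters and 63.2% at other peaks, against 68.7%. In the second it was 91.5%, 88.7%, 90.5% and 81.4% under the same settings, against 84.5%. The cause of these moves was not tested. With narrower limits the difference was -0.385 and the share 68.4% in the first table, and -0.345 and 84.9% in the second. The authors' own fold column gave -0.33 and 84.5% in the second table. Leaving out the peaks near the centromere gave -0.41 and 68.8% in the first table, and -0.335 and 84.6% in the second. These last 2 settings were chosen after seeing the data. Ranked with no level filter, 17 of the 40 named peaks were the same. Over all promoter windows of the arm, with or without a peak, the shares with a motif were lower than at a peak for NRF1, ETS, YY1, SP/KLF, CRE, E-box and NFY, with 51.2% in place of 75.5% for GGGCGG and 1.46% in place of 2.62% for CRE. They were higher for RUNX, GATA and TATA, with 8.76% in place of 3.37% for GATA and 11.4% in place of 4.49% for TATA. No paired analysis was possible because the results come from no test and the first table names no library, and leaving out a replicate was not run for the same reason. Depth limits single peaks, since a median long arm peak had 127 knockout reads, and 1 library per group leaves the second table without a replicate check.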
